A study of Mus musculus with 27 samples.

Results

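The 9 genes described here encode proteins with which astrocytes clear transmitter, buffer potassium and protons, and couple to each other. They were chosen by gene symbol (Slc1a2, Slc1a3, Glul, Kcnj10, Gja1, Gjb6, Slc6a11, Slc4a4 and Slc7a10), and all 9 were found among the 31053 genes of the count tables. The rule of choice used no measured value, but earlier results of these data were known when the genes were chosen. Their UMIs, single captured RNA molecules, were followed in nuclei sequenced from the hippocampus of 27 mice of 6 genotype groups, with 1 library for each mouse. The question behind the groups was how the cytosolic DNA sensor cGAS shapes the response of the hippocampus to tau. Cgas+/+ held 5 mice (3 males and 2 females), Cgas+/- and Cgas-/- held 2 males each, and P301S Cgas+/+, P301S Cgas+/- and P301S Cgas-/- held 6 mice each (3 males and 3 females). P301S mice carry a transgene for mutant human tau under the mouse prion protein promoter, which is active in neurons and also outside them, and the Cgas deletion was present in every cell from birth. The labels state no treatment and no age, and the study describes adult littermates. In astrocyte-like nuclei as a whole, none of the 9 genes reached an adjusted p under 0.05 in any of the genotype comparisons tested over all libraries. Within the smaller of 2 astrocyte-like clusters, which had the higher level of Gfap, Slc1a3 and Slc7a10 were more than 2 times as high in P301S mice as in tau-free mice and Gja1 was lower, a split into clusters that was examined after the data had been seen. In P301S Cgas+/+ against Cgas+/+ alone, Slc7a10 (adjusted p = 0.0515, edgeR) and Gja1 (adjusted p = 0.116, edgeR) did not pass. Whether RNA changed within nuclei of the same kind or other nuclei fell into this cluster cannot be told apart.

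Astrocytes take up the glutamate that neurons release, turn it into glutamine and return it, and they remove GABA, potassium and acid from the space around synapses. Slc1a2 and Slc1a3 encode the main glial glutamate transporters, Slc6a11 a GABA transporter, and Glul glutamine synthetase. Kcnj10 encodes an inwardly rectifying potassium channel that oligodendrocytes share, Slc4a4 an electrogenic sodium bicarbonate cotransporter, and Slc7a10 a transporter of small neutral amino acids such as glycine and serine. Gja1 and Gjb6 encode the connexins that join astrocytes into a network through gap junctions. Gfap, the intermediate filament protein that reactive astrocytes make in larger amounts, is not a member and serves here as a marker.

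The genes lie on 9 autosomal stretches of the mouse genome (GRCm38, 1-based positions of the whole gene). Slc1a2 spans chr2:102658659-102790784 on the plus strand, Slc1a3 spans chr15:8634124-8710764 on the minus strand, and Slc6a11 spans chr6:114131241-114249952 on the plus strand. Glul lies at chr1:153899944-153909723 and Kcnj10 at chr1:172341210-172374085, both on the plus strand. Gja1 lies at chr10:56377330-56402513 on the plus strand and Gjb6 at chr14:57123303-57133611 on the minus strand. Slc4a4 lies at chr5:88886818-89239653 and Slc7a10 at chr7:35186385-35201114, both on the plus strand. Counts of pre-mRNA cover exons and introns alike, so each value below belongs to the whole gene and not to an isoform.

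RefSeq start sites (GRCm38.p6) matched all 9 members with 10 promoters, 2 of them for Slc4a4. The 250 bases before the start are printed for the 3 genes that differed between P301S and tau-free mice in the higher Gfap cluster, Slc1a3, Slc7a10 and Gja1, and for Glul, the member that followed Slc7a10 most closely from mouse to mouse. Capitals mark matches to the CCAAT box (CCAAT), the GC box (GGGCGG) and the TATA box (TATAAA) on either strand.
Slc1a3, chr15:8710808-8711057, minus strand: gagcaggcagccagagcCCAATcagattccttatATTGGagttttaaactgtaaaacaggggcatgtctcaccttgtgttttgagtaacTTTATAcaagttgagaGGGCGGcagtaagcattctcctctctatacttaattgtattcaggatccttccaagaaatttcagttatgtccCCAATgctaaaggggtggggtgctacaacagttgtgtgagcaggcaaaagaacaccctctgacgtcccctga
Slc7a10, chr7:35186135-35186384, plus strand: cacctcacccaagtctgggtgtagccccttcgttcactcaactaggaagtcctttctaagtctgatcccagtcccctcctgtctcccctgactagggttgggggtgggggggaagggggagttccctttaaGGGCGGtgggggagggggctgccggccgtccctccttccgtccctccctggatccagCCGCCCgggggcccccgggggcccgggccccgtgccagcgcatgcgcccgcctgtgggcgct
Gja1, chr10:56377050-56377299, plus strand: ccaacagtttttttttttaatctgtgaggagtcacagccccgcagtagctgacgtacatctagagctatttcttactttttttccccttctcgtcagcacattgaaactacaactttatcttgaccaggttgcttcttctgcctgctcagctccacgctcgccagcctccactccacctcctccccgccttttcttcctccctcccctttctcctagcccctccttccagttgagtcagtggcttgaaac
Glul, chr1:153899679-153899928, plus strand: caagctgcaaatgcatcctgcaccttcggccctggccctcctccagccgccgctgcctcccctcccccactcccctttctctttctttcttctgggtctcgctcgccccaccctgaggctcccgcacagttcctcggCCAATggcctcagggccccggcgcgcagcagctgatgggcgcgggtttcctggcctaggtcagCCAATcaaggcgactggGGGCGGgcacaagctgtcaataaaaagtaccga
The Slc1a3 window held 3 CCAAT boxes, 1 GC box and 1 TATA box at 44.8% GC, and the Slc7a10 window held 2 GC boxes at 69.6% GC. The Gja1 window held none of these motifs at 50% GC, and the Glul window held 2 CCAAT boxes and 1 GC box at 64.8% GC. Over the 10 promoters of the members, 4 held a CCAAT box against 33.8% of all 32817 promoters of that length, 6 held a GC box against 32.7%, and 1 held a TATA box against 12.4%. The STAT palindrome TTCCNGGAA was in 0 of the 10 and in 0.914% of all promoters, and the SOX motif AACAAT was in 0 of the 10 and in 9.42% of all. A match is a description of these letters only.

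The 27 libraries held 241938 barcodes, with 46091490 to 79484316 UMIs in a library, and 204852 nuclei were kept, 5840 to 12572 per mouse. Clustering without the 9 members in the variable genes gave 43 clusters, of which 30 were named from marker genes, and 13 with 30772 nuclei (15%) stayed unnamed. Astrocyte-like nuclei, in 2 clusters in which 12 and 11 of the 12 astrocyte markers were detected, numbered 26767 (13.1%), from 359 to 1738 per mouse, with 1608380 to 4900108 UMIs per mouse. Pairs of libraries shared at most 0.57% of their barcodes over 351 pairs. Of the libraries, 3 stood apart: P301S Cgas+/+ replicate 2, P301S Cgas+/+ replicate 3 and P301S Cgas+/- replicate 1 each supplied 49.8% to 68.2% of a cluster of 916 to 6993 nuclei, with cerebellar genes, of shallow nuclei or of striatal neuron-like nuclei. They were chosen after these shares were seen, among larger clusters only, and P301S Cgas+/- replicate 2, which supplied 100% of an unnamed cluster of 67 nuclei, was not counted among them. The targeted gene, listed as Mb21d1, was counted in microglia-like nuclei at 35.4 ± 2.41 CPM (UMIs of the gene scaled by the UMI total of the class, SD, n = 5) in Cgas+/+ and 27.3 ± 8.14 CPM (n = 2) in the libraries labelled Cgas-/-. With the transgene it was at 37.6 ± 11.1 CPM in the 6 P301S Cgas+/+ mice and at 51.3 ± 7.13 CPM in the 6 mice labelled P301S Cgas-/-. These are 3' tags, which count RNA from the gene whether or not its product works, and the deleted part is not given in the sources used here, so the level does not check the labels.

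The members differed widely in level. Per kilobase of gene span, so that genes can be set side by side, Slc1a2 had the highest level in astrocyte-like nuclei at 71.8 ± 10.1 CPM per kb (SD, n = 27 mice). Glul followed at 54.7 ± 14.5 and Slc1a3 at 42.4 ± 4.03 CPM per kb. Slc7a10 was at 13.3 ± 3.12, Gja1 at 11.8 ± 2.37 and Gjb6 at 11.2 ± 2.7 CPM per kb, which lie within each other's SD. Slc4a4 was at 6.59 ± 0.634, Kcnj10 at 4.09 ± 0.7 and Slc6a11 at 3.07 ± 0.59 CPM per kb. Without the length correction the mean levels were 9491 CPM for Slc1a2, 3252 for Slc1a3, 2324 for Slc4a4, 535 for Glul, 364 for Slc6a11, 298 for Gja1, 195 for Slc7a10, 135 for Kcnj10 and 115 for Gjb6. All further levels are CPM of the mouse's class total and are compared only within a gene.

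**Figure D1:**
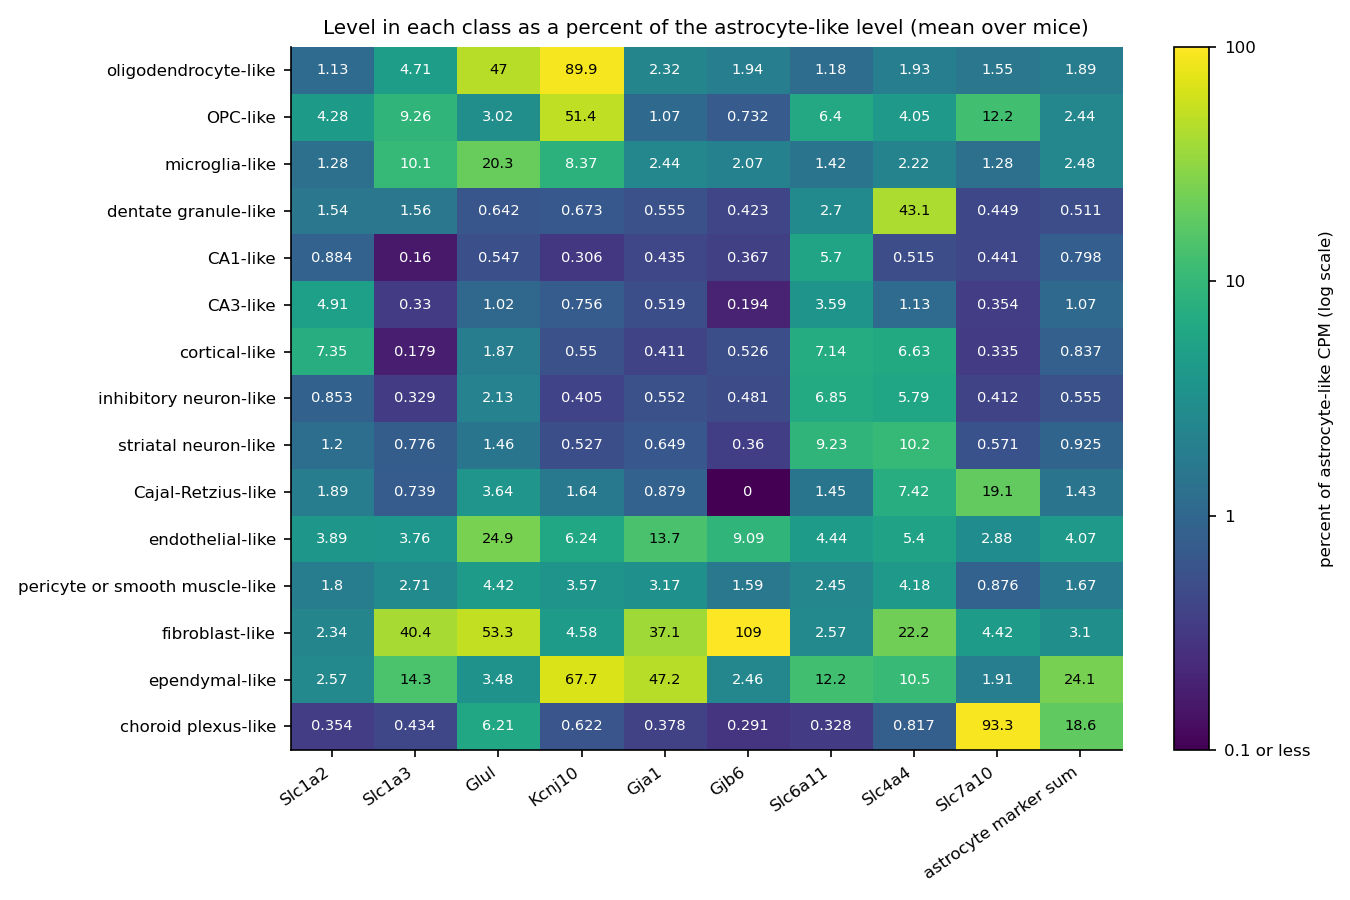
Mean level over mice of each of the 9 genes (columns) in each other class of nuclei (rows), as a percent of the gene's astrocyte-like level on a log colour scale, with the summed astrocyte markers in the last column. Bright cells mark the second homes of the genes, such as Kcnj10 in oligodendrocyte-like nuclei (89.9%), Slc4a4 in dentate granule-like nuclei (43.1%), Gjb6 in fibroblast-like nuclei (109%, a mean of per-mouse percents) and Slc7a10 in choroid plexus-like nuclei (93.3%).

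Each member had its highest mean level in astrocyte-like nuclei, but for Gjb6 the order rested on the mice averaged and on the doublet rate. Gjb6 was at 115 CPM in astrocyte-like nuclei of 27 mice and at 111 CPM in fibroblast-like nuclei of 14 mice. Within those 14 mice the fibroblast-like level averaged 109% of the astrocyte-like level. With the double doublet rate fibroblast-like nuclei were at 176 CPM and astrocyte-like nuclei at 115 CPM. The genes fell into those that stood far above every other class in astrocyte-like nuclei and those with a second home. Classes are clusters of the same nuclei, so these levels are given as a description without a test. For Slc1a2, the mean in the next class, cortical neuron-like nuclei, was 696 ± 91.8 CPM (n = 22 mice), 7.35% of the astrocyte-like level. CA3-like nuclei held 447 ± 128 CPM of Slc1a2, 4.91% of the astrocyte-like level, and CA1-like nuclei held 82.2 CPM. Free RNA in the droplets adds UMIs of astrocyte genes to every class, and the summed astrocyte markers of a class, as a share of their sum in astrocyte-like nuclei, gauge it: 0.837% in cortical, 1.07% in CA3-like and 0.798% in CA1-like nuclei. Slc1a2 in cortical and CA3-like nuclei thus lay above that gauge. For Slc6a11, the next means were those of ependymal-like nuclei (40.3 CPM, 12.2% of the astrocyte-like level) and striatal neuron-like nuclei (32.4 CPM, 9.23%), and cortical (25.2 CPM) and inhibitory neuron-like nuclei (24.3 CPM) were at 7.14% and 6.85%.

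Kcnj10 had its second home in the oligodendrocyte lineage. The channel gene was at 119 ± 24.6 CPM (n = 27) in oligodendrocyte-like nuclei, 89.9% of its astrocyte-like level, and at 68 ± 15.9 CPM in OPC-like nuclei (oligodendrocyte precursors), 51.4%. The summed astrocyte markers stood at 1.89% and 2.44% of the astrocyte-like sum in those classes. In ependymal-like nuclei Kcnj10 was at 86.1 ± 28.9 CPM (n = 15), 67.7%, where the astrocyte marker sum was 24.1%. Kcnj10 and Gja1 (47.2%) lay above that sum, and Slc1a2 (2.57%) and Slc7a10 (1.91%) lay far below it. The sum is therefore not read as free RNA in this class. Glul was at 228 ± 51.4 CPM in oligodendrocyte-like nuclei, 47% of its astrocyte-like level, and at 107 ± 35.8 CPM, 20.3%, in microglia-like nuclei. Slc1a3 was at 151 ± 40 CPM in oligodendrocyte-like nuclei, 4.71%, and each of the remaining members at 2.32% or less.

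Slc4a4 had its second home in dentate granule-like nuclei. Dentate granule-like nuclei held 1000 ± 196 CPM (n = 26 mice) of this bicarbonate cotransporter gene, 43.1% of the astrocyte-like level, at an astrocyte marker sum of 0.511%. CA1-like nuclei held 11.8 ± 6.85 CPM and CA3-like nuclei 25.9 ± 25.8 CPM, with cortical (151 CPM) and inhibitory neuron-like nuclei (132 CPM) between. By group, the level of Slc4a4 in dentate granule-like nuclei was 867 ± 167 CPM (714 to 1143, n = 5) for Cgas+/+, 908 CPM for Cgas+/- and 874 CPM for Cgas-/-. For P301S Cgas+/+ it was 992 ± 124 CPM (817 to 1171, n = 6), for P301S Cgas+/- 1118 ± 280 CPM (877 to 1647) and for P301S Cgas-/- 1090 ± 170 CPM (862 to 1269, n = 5). The 3 P301S means were above the 3 tau-free means while the ranges overlapped, and no test was run in this class. Slc1a2 also differed between fields, with 145 ± 17.4 CPM in dentate granule-like nuclei between the levels of CA1-like and CA3-like nuclei.

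Glia outside the astrocytes and cells of the brain's linings held other members. In OPC-like nuclei Slc1a3 was at 300 ± 47.8 CPM (9.26% of the astrocyte-like level), Slc1a2 at 400 ± 43 CPM (4.28%) and Slc7a10 at 23.9 ± 8.43 CPM (12.2%). In microglia-like nuclei Slc1a3 was at 328 ± 65.8 CPM, 10.1%, at an astrocyte marker sum of 2.48%. Fibroblast-like nuclei, counted in the 14 mice with at least 20 of them, held Slc1a3 at 1297 ± 608 CPM (40.4%), Gjb6 at 111 ± 59.5 CPM (109%) and Gja1 at 106 ± 51.7 CPM (37.1%), with an astrocyte marker sum of 3.1%. Both connexin genes were therefore present in this class, whereas ependymal-like nuclei held Gja1 at 132 ± 37.5 CPM (47.2%) and Gjb6 at 2.03 CPM. Choroid plexus-like nuclei held Slc7a10 at 157 ± 31.8 CPM (n = 10 mice), 93.3% of its astrocyte-like level, where the astrocyte marker sum was 18.6%. Slc1a2 was at 0.354% and Slc1a3 at 0.434% in the same nuclei, so the sum is not read as free RNA in this class. In Cajal-Retzius-like nuclei Slc7a10 was at 36 ± 24.7 CPM (n = 15), 19.1%, and Gjb6 was at 0 in all 15 mice.

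Across the 6 genotype groups the level of each member in astrocyte-like nuclei moved little. The highest group mean was between 1.1 times (Slc4a4) and 1.46 times (Kcnj10) the lowest. Over the 27 mice the coefficient of variation ran from 9.5% for Slc1a3 to 26.6% for Glul. With the groups of each gene ordered by their mean, neighbours lay further apart than the larger of their SDs once for Slc1a3 and once for Slc6a11, and for none of the other 7 genes. These levels are per UMI of the class, and fewer nuclei of a kind cannot be told apart from less RNA per nucleus within a sum.

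**Figure D2:**
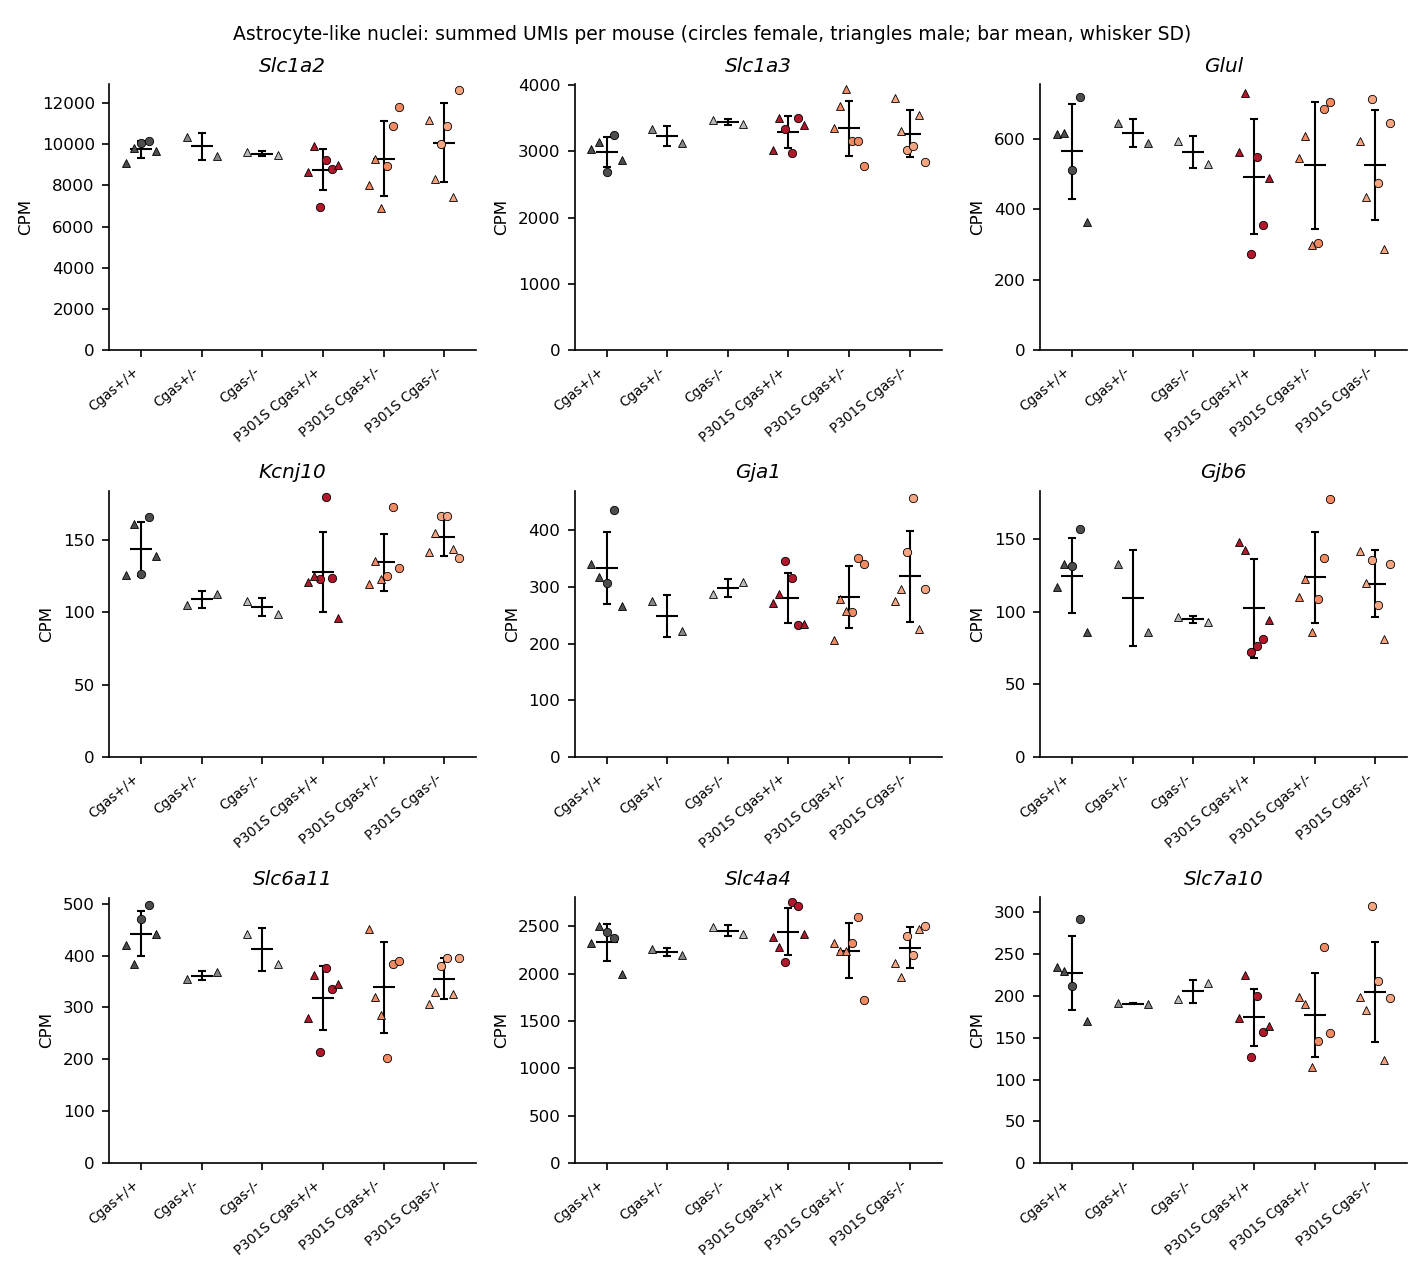
Level in astrocyte-like nuclei (CPM, linear axes from 0) of each of the 9 genes in the 6 genotype groups, 1 point per mouse (circles female, triangles male), with a bar at the group mean and whiskers of 1 SD. The groups overlap for most genes, and Slc6a11 is the member whose P301S Cgas+/+ mice (214 to 376 CPM) all lie below the Cgas+/+ mice (384 to 497 CPM). That difference did not pass the test, and the share of all genes that separate in this way is not given.

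The transmitter-handling genes were compared first between P301S Cgas+/+ and Cgas+/+ mice, whose genotype labels differ in the tau transgene only (the tau contrast). Slc6a11 in Cgas+/+ was at 420, 384, 470, 497 and 441 CPM, and in P301S Cgas+/+ at 279, 363, 214, 376, 335 and 345 CPM. Every P301S Cgas+/+ mouse was below every Cgas+/+ mouse, and the log2 difference was -0.52 ± 0.18 (SE, 95% interval -0.87 to -0.17), with an adjusted p of 0.275 (edgeR quasi-likelihood test, adjusted over 12987 genes). The difference did not pass the threshold. The share of all genes whose mice separate in this way is not given here, and 11.7% of genes had an unadjusted p under 0.05. Within the 2 clusters of astrocyte-like nuclei, named by their Gfap level, it was smaller, at -0.10 ± 0.14 for Slc6a11 in the lower Gfap cluster and -0.20 ± 0.18 in the higher Gfap cluster. The groups filled these clusters unequally: 11 to 112 of the 737 to 1738 astrocyte-like nuclei per Cgas+/+ mouse lay in the higher Gfap cluster, and 85 to 815 of 359 to 1514 per P301S Cgas+/+ mouse. Slc6a11 in the other groups was at 355 and 368 CPM in Cgas+/-, 441 and 383 in Cgas-/-, 451, 320, 285, 202, 383 and 390 in P301S Cgas+/-, and 307, 330, 380, 396, 325 and 396 in P301S Cgas-/-, so the ranges of P301S Cgas+/- and P301S Cgas-/- reached into that of Cgas+/+.

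Of the remaining transmitter genes, Slc1a2 was at 9751 ± 406 CPM (n = 5) in Cgas+/+ mice and 8746 ± 992 CPM (n = 6) in P301S Cgas+/+, a log2 difference of -0.21 ± 0.15. Slc1a3 was at 2999 ± 226 and 3292 ± 239 CPM, a log2 difference of 0.10 ± 0.09. Glul was at 565 ± 135 and 493 ± 163 CPM, a log2 difference of -0.23 ± 0.30. None of the 3 passed the test, although the means of Slc1a2 and Slc1a3 lay further apart than the larger SD of either group.

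Kcnj10 was at 126, 161, 127, 166 and 139 CPM in Cgas+/+ mice and at 121, 125, 123, 180, 124 and 96 CPM in P301S Cgas+/+, with a log2 difference of -0.25 ± 0.12 and an adjusted p of 0.415 (edgeR). The ranges overlapped, since the highest mouse of all 11 was a P301S Cgas+/+ mouse. Gja1 was at 341, 318, 307, 436 and 266 CPM in Cgas+/+ mice and at 272, 287, 345, 315, 233 and 234 CPM in P301S Cgas+/+, with a log2 difference of -0.33 ± 0.14 and an adjusted p of 0.34 (edgeR). Gjb6, at 125 ± 26 and 102 ± 34.1 CPM, had a log2 difference of -0.32 ± 0.22. Slc7a10 was at 228 ± 43.9 CPM in Cgas+/+ mice and 174 ± 34.4 CPM in P301S Cgas+/+, a log2 difference of -0.43 ± 0.22, and Slc4a4 at 2329 ± 195 and 2442 ± 246 CPM, a log2 difference of 0.01 ± 0.12.

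In the tau contrast, 0 of the 9 members were called at an adjusted p under 0.05, where edgeR called 1 of 12987 genes (0.0077%). At an unadjusted p under 0.05 stood 3 of the 9 members (Slc6a11, Gja1 and Kcnj10) and 1519 genes (11.7%), and DESeq2 called 172 genes and 0 members. Fitted values were below 0 for 7 of the 9 members, with a median log2 difference of -0.25 against -0.01 over all genes tested. This was not the pattern within the clusters, which the groups filled unequally: the members' median was -0.07 in the lower Gfap cluster (6 below 0, against 0.00 over all genes) and 0.10 in the higher Gfap cluster (2 below 0, against 0.01). Summed markers of other classes differed in mean between the groups, in both directions. The oligodendrocyte marker sum in astrocyte-like nuclei was 145 CPM (97.6 to 206) in Cgas+/+ mice and 204 CPM (106 to 263) in P301S Cgas+/+, the OPC sum 95.4 and 122 CPM, and the microglia sum 57.3 and 70.4 CPM. The excitatory neuron sum was 143 CPM (113 to 167) in Cgas+/+ and 114 CPM (88.2 to 165) in P301S Cgas+/+, and the inhibitory neuron sum 92.8 and 84.6 CPM. The astrocyte marker sum itself was 3601 and 3900 CPM. Their part in these values was not tested. The share of astrocyte-like nuclei was 14.2 ± 3.05% in Cgas+/+ and 10.9 ± 4.84% in P301S Cgas+/+, a difference of -3.34 percentage points (two-sided exact permutation test, p = 0.238, adjusted over 3 contrasts 0.595).

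**Figure D3:**
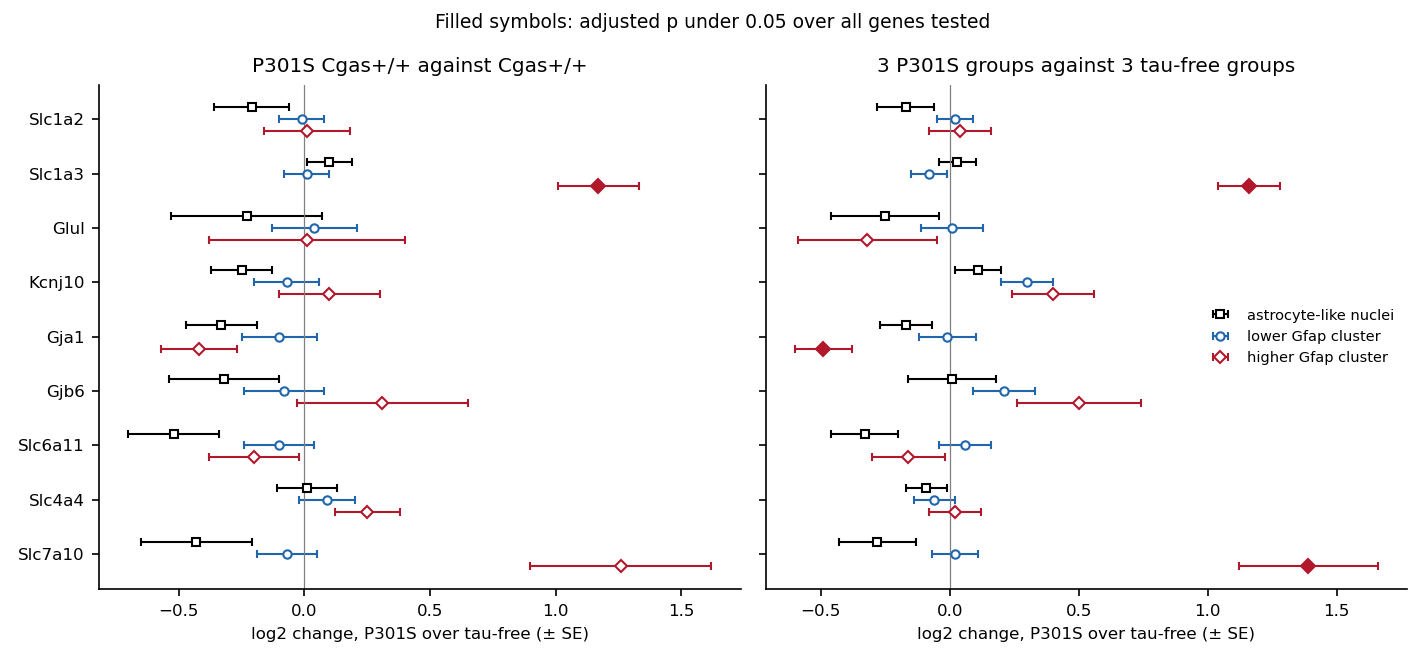
Log2 difference with whiskers of 1 SE for each of the 9 genes in astrocyte-like nuclei, in the lower Gfap cluster and in the higher Gfap cluster, for P301S Cgas+/+ against Cgas+/+ and for all P301S against all tau-free mice. Filled symbols have an adjusted p under 0.05, and these are Slc1a3 in both comparisons and Slc7a10 and Gja1 in the pooled comparison, all in the higher Gfap cluster.

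Loss of Cgas on the P301S background left the members without a called difference. Between P301S Cgas-/- and P301S Cgas+/+, 0 of 9 members and 0 of 12987 genes (0%) were called by edgeR, 621 genes (4.78%) and 1 member had an unadjusted p under 0.05, and DESeq2 called 1 gene, which was no member. The member was Kcnj10, at 142, 155, 167, 167, 144 and 138 CPM in P301S Cgas-/-, with a log2 difference of 0.27 ± 0.11 (unadjusted p under 0.05, adjusted p = 1, edgeR). Of the 6 P301S Cgas+/+ mice, 5 were at 125 CPM or lower and 1 was at 180 CPM. Fitted values were above 0 for 7 of the 9 members, with a median of 0.18 against 0 over all genes. The 8 members other than Kcnj10 lay between -0.09 (Slc4a4) and 0.21 (Gjb6). Both contrasts share the P301S Cgas+/+ mice. The size that the deletion contrast left possible is seen from its intervals, which ran from -0.18 to 0.17 for Slc1a3, from -0.09 to 0.49 for Slc1a2 and from -0.48 to 0.64 for Glul.

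Between P301S Cgas+/- and P301S Cgas+/+, 0 of 9 members and 0 of 12987 genes (0%) were called, with 395 genes and 0 members at an unadjusted p under 0.05, and DESeq2 called 0. The largest fitted value was that of Gjb6, at 0.26 ± 0.22 on the log2 scale, and the other 8 lay between -0.12 (Slc4a4) and 0.09 (Kcnj10). Cgas-/- against Cgas+/+ without tau gave 0 called of 13746 genes (0%), 348 at an unadjusted p under 0.05 and 0 by DESeq2. Kcnj10 there had a log2 difference of -0.37 ± 0.16 (unadjusted p under 0.05, adjusted p = 1, edgeR), since the 2 Cgas-/- mice were at 108 and 99.2 CPM, below all 5 Cgas+/+ mice, and the other 8 members lay between -0.34 (Gjb6) and 0.17 (Slc1a3). The 2 Cgas+/- mice were also low in Kcnj10, at 105 and 113 CPM. Libraries of Cgas+/- and Cgas-/- all carry software version 3.0.2 in their file headers, while those of Cgas+/+ carry 3.0.2 or 3.1.0. Version was not a term in this comparison or in the interaction. The difference between both deletion effects, tested as an interaction over 27 mice, was 0.64 ± 0.20 for Kcnj10 (adjusted p = 1, edgeR), and 0 of 13746 genes (0%) were called by edgeR against 6 by DESeq2, none a member. The other 8 members lay between -0.23 (Slc4a4) and 0.54 (Gjb6), and the interaction rests on 2 Cgas-/- males.

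Pooling the 3 P301S groups against the 3 tau-free groups used all 27 mice, with each group weighted equally. The Cgas+/- and Cgas-/- groups, of 2 males each, thus counted as much each as the 5 Cgas+/+ mice. In this comparison 378 of 13746 genes (2.75%) were called, 291 higher and 87 lower in P301S mice, and 0 of the 9 members (DESeq2 called 710 genes and 0 members). The smallest p among the members was that of Slc6a11, with a log2 difference of -0.33 ± 0.13 (adjusted p = 0.16, edgeR), against 0.06 ± 0.10 within the lower and -0.16 ± 0.14 within the higher Gfap cluster. Without the 3 libraries that stood apart, Slc6a11 was called, at -0.41 ± 0.10 with an adjusted p of 0.017. The other 8 members lay between -0.28 (Slc7a10) and 0.11 (Kcnj10).

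The astrocyte-like nuclei formed 2 clusters, and the members differed between them in a way that the sum over both does not show. The lower Gfap cluster held 21241 nuclei (101 to 1626 per mouse) with a median of 3176 UMIs per nucleus, and the higher Gfap cluster held 5526 (11 to 815 per mouse) with a median of 4047 UMIs. In the 26 mice with at least 20 nuclei in each, Gfap was 6.36 times as high in the higher Gfap cluster. Slc7a10 was at 0.365 ± 0.162 times, Slc6a11 at 0.453 times, Gjb6 at 0.601 times and Slc1a2 at 0.751 times its level in the lower Gfap cluster, below 1 in each of the 26 mice. Glul (0.678 times) was below 1 in 23 mice and Kcnj10 (0.714 times) in 24. Slc1a3 (0.929 times, below 1 in 12 mice), Gja1 (0.953 times, 18 mice) and Slc4a4 (0.968 times, 17 mice) had means near 1. As clusters are made from the same nuclei, these ratios are a description.

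The ratio of Slc1a3 spread from 0.454 to 1.34 among mice, and its level within the higher Gfap cluster differed with the tau transgene. In the 5 Cgas+/+ mice Slc1a3 in that cluster was at 1898, 1678, 1487, 1767 and 1443 CPM, in the 2 Cgas+/- mice at 1717 and 1624 CPM, and in the 2 Cgas-/- mice at 1741 and 1619 CPM. In P301S Cgas+/+ mice it was at 3181, 3448, 3540, 2944, 3775 and 3891 CPM, in P301S Cgas+/- mice at 3475, 4354, 4181, 3367, 2801 and 1599 CPM, and in P301S Cgas-/- mice at 3895, 3894, 3408, 3284, 3820 and 2959 CPM. All 6 P301S Cgas+/+ and all 6 P301S Cgas-/- mice were above the highest tau-free mouse, and 1 P301S Cgas+/- mouse, replicate 6, lay in the tau-free range. The mean was 1664 ± 140 CPM over the 9 tau-free mice and 3434 ± 625 CPM over the 18 P301S mice. In the pooled fit, which weights each group and not each mouse equally, Slc1a3 rose 2.24-fold, by 1.16 ± 0.12 on the log2 scale (adjusted p = 1.39e-07, edgeR). That comparison called 925 of 7773 genes (11.9%), 530 higher and 395 lower. For P301S Cgas+/+ against Cgas+/+ the log2 difference was 1.17 ± 0.16 (95% interval 0.86 to 1.48, adjusted p = 0.000122), where 298 of 8033 genes (3.71%) were called.

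Slc7a10, the neutral amino acid transporter gene, moved in the same direction from a low level. The 9 tau-free mice were at 25 to 69.3 CPM (42.5 ± 14.4) in the higher Gfap cluster, from 2 to 12 UMIs per mouse. The P301S Cgas+/+ mice were at 115, 138, 84.6, 75.3, 119 and 82.4 CPM, the P301S Cgas+/- mice at 105, 112, 80.4, 120, 131 and 27 CPM, and the P301S Cgas-/- mice at 112, 79.8, 214, 106, 77.8 and 104 CPM. Apart from P301S Cgas+/- replicate 6, with 4 UMIs, each P301S mouse was above the highest tau-free mouse. Slc7a10 rose 2.63-fold over the pooled groups, by 1.39 ± 0.27 on the log2 scale (adjusted p = 0.00108, edgeR). In P301S Cgas+/+ against Cgas+/+ the log2 difference of 1.26 ± 0.36 did not pass the threshold (adjusted p = 0.0515), and it did with DESeq2 (0.0139), without the filter on low counts (1.82e-05), without the sex covariate (0.0424), with the software version as a term (0.0378), without P301S Cgas+/+ replicate 3 (0.0478) or without replicate 4 (0.0421). Even after this rise the P301S mean of 105 ± 37.7 CPM stayed below the level of the lower Gfap cluster, 230 ± 34.6 CPM in the same mice.

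Gja1, the main astrocyte connexin gene, moved the other way. The 9 tau-free mice were at 244 to 450 CPM in the higher Gfap cluster, with the Cgas+/- mice at 350 and 309 CPM and the Cgas-/- mice at 359 and 414 CPM. P301S mice were at 174 to 398 CPM, with a mean of 268 ± 53.3 CPM against 343 ± 61.6 CPM, and the ranges overlapped, with 6 of the 18 P301S mice below every tau-free mouse. Gja1 fell by 0.49 ± 0.11 on the log2 scale over the pooled groups (0.714-fold, adjusted p = 0.00215, edgeR), and in P301S Cgas+/+ against Cgas+/+ the log2 difference was -0.42 ± 0.15 (adjusted p = 0.116). The other connexin gene, Gjb6, had a pooled log2 difference of 0.50 ± 0.24 (adjusted p = 0.196), and it passed the threshold when no filter on low counts was applied (0.60, adjusted p = 0.0263). The remaining members were Kcnj10 (0.40 ± 0.16, adjusted p = 0.0924), Glul (-0.32 ± 0.27), Slc6a11 (-0.16 ± 0.14), Slc1a2 (0.04 ± 0.12) and Slc4a4 (0.02 ± 0.10), none called. Kcnj10 passed the threshold without the sex covariate (log2 difference 0.50, adjusted p = 0.0334) and without Cgas+/+ replicate 4 (log2 difference 0.44, adjusted p = 0.044), a mouse with 11 nuclei in this cluster and 277 CPM of Kcnj10.

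In the lower Gfap cluster none of these genes passed the test. Slc1a3 there was at 3245 ± 276 CPM (2755 to 3590) in the 9 tau-free mice and 3085 ± 292 CPM (2646 to 3770) in the 18 P301S mice, with a pooled log2 difference of -0.08 ± 0.07. Slc7a10 was at 225 ± 35.3 and 230 ± 34.6 CPM, and Gja1 at 305 ± 60.4 and 320 ± 78.8 CPM. No member was called in the pooled comparison, where 23 of 12856 genes (0.179%) were, nor in P301S Cgas+/+ against Cgas+/+, where 0 of 11964 (0%) were by edgeR and 463 had an unadjusted p under 0.05. The smallest p was that of Kcnj10 in the pooled comparison (log2 difference 0.30 ± 0.10, adjusted p = 0.229, edgeR).

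The difference between the clusters was tested in a fit that kept each mouse as a block. As the clusters are made from the same nuclei and the groups filled them unequally, the fit does not test a fixed kind of nuclei. The pooled log2 difference was greater in the higher than in the lower Gfap cluster by 1.23 ± 0.12 for Slc1a3 (adjusted p = 1.21e-07, edgeR) and by 1.46 ± 0.20 for Slc7a10 (adjusted p = 1.26e-06), and it differed by -0.43 ± 0.11 for Gja1 (adjusted p = 0.00545). These 3 were the members called, among 950 of 13720 genes (6.92%). For P301S Cgas+/+ against Cgas+/+ the difference was 1.23 ± 0.17 for Slc1a3 (adjusted p = 0.000105) and 1.45 ± 0.27 for Slc7a10 (adjusted p = 0.000832), 2 members among 235 genes (1.71%), and -0.23 for Gja1 (adjusted p = 0.618).

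**Figure D4:**
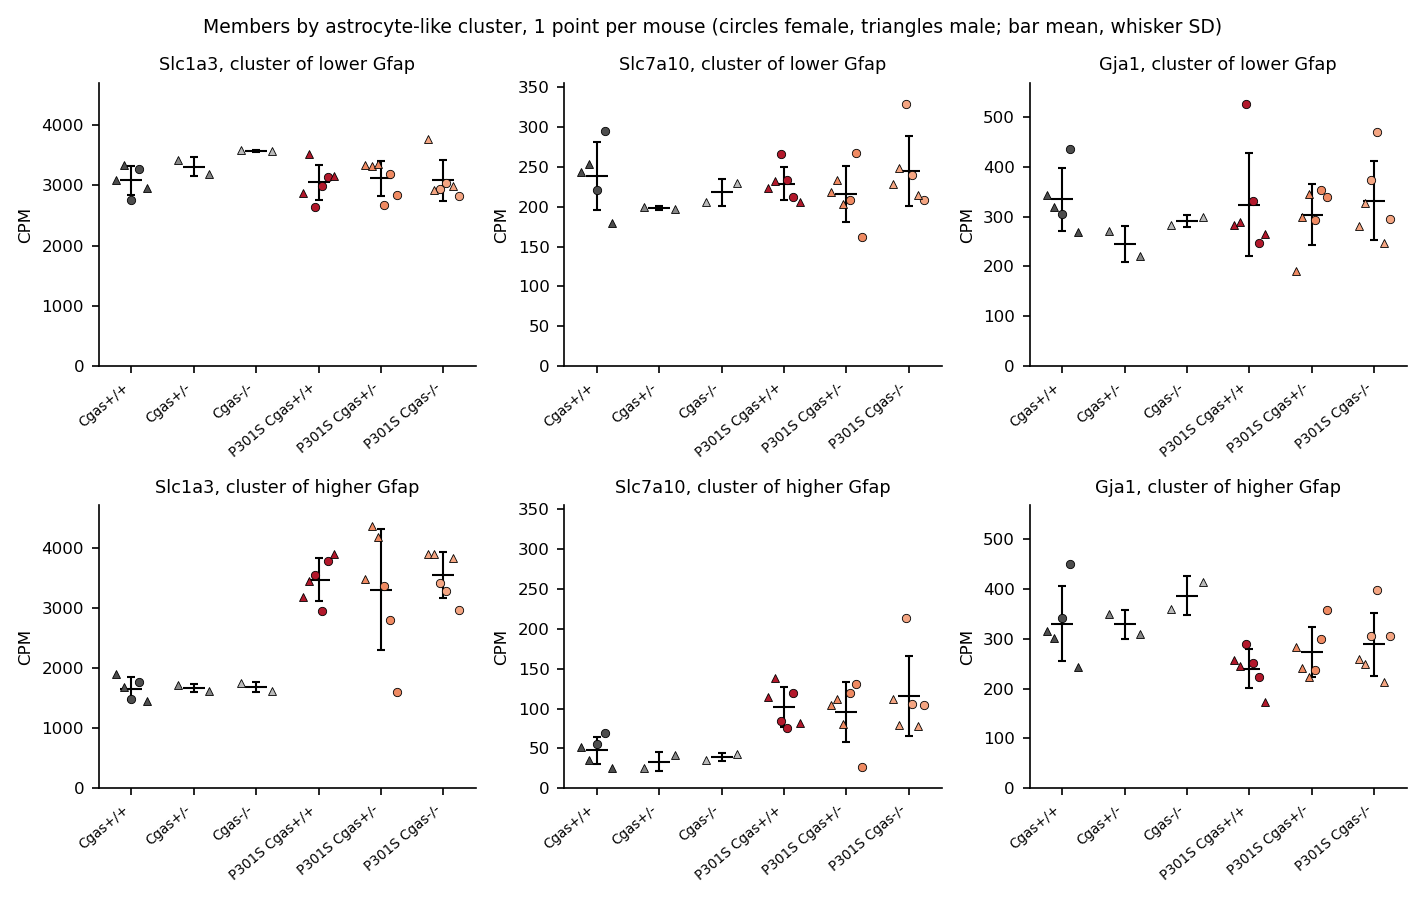
Level (CPM, linear axes from 0) of Slc1a3, Slc7a10 and Gja1 in the lower Gfap cluster (top) and the higher Gfap cluster (bottom) by genotype group, 1 point per mouse (circles female, triangles male), with a bar at the group mean and whiskers of 1 SD. In the higher Gfap cluster Slc1a3 was at 1443 to 1898 CPM in tau-free mice and at 1599 to 4354 CPM in P301S mice, with 17 of the 18 above every tau-free mouse.

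The number of nuclei behind these values differed between the groups. Tau-free mice had 11 to 112 nuclei and 51 to 558 Slc1a3 UMIs in the higher Gfap cluster, and P301S mice had 52 to 815 nuclei and 237 to 12318 Slc1a3 UMIs. The 6 P301S mice with no more than 112 nuclei were at 1599, 2801, 2944, 2959, 3408 and 3448 CPM of Slc1a3, 5 of them above every tau-free mouse. For Slc7a10 the same 5 mice were above every tau-free mouse, at 75.3 to 214 CPM. For Gja1 the same 6 mice were at 245 to 358 CPM, with a median of 303 CPM, and 0 of the 6 were below every tau-free mouse. Other genes of this cluster also differed, of which 4 are named here after their values were seen. Osmr, a cytokine receptor gene of reactive astrocytes, rose by 2.83 ± 0.35 on the log2 scale (adjusted p = 1.24e-05), Gfap rose by 0.66 ± 0.18 (adjusted p = 0.0156), Agt, which encodes angiotensinogen, fell by 2.41 ± 0.29 (adjusted p = 2.55e-06), and Aqp4, the water channel gene, fell by 0.68 ± 0.12 (adjusted p = 0.000212). A change of RNA within nuclei of the same kind and a change in which nuclei fell into this cluster cannot be told apart.

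Marker sums of other classes in the higher Gfap cluster were below those in their own classes. The microglia marker sum was 73.9 CPM in tau-free and 75.6 CPM in P301S mice, the oligodendrocyte sum 195 and 185 CPM and the endothelial sum 9.56 and 8.87 CPM. The OPC sum was 211 CPM (90.1 to 361) and 143 CPM (75.1 to 219), the inhibitory neuron sum 152 CPM (57 to 416) and 80.3 CPM (48.6 to 148), and the fibroblast sum 104 CPM (69.2 to 145) and 141 CPM (78.6 to 188). The excitatory neuron sum was 146 CPM (96.8 to 195) and 109 CPM (67.9 to 192), and the ependymal sum 24.1 and 36.1 CPM. In their own classes the sums were 1913 CPM for excitatory neuron, 7513 CPM for inhibitory neuron, 13588 CPM for OPC, 6892 CPM for fibroblast and 7095 CPM for ependymal markers. The astrocyte sum was 4824 and 4394 CPM. The part of these in the differences was not tested.

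No difference with the copies of Cgas passed the test for these genes within the cluster. Between P301S Cgas-/- and P301S Cgas+/+ the log2 difference in the higher Gfap cluster was 0.03 ± 0.14 (95% interval -0.24 to 0.31) for Slc1a3 and 0.11 ± 0.23 for Slc7a10, and between P301S Cgas+/- and P301S Cgas+/+ it was -0.09 ± 0.14 and 0.01 ± 0.23. Gja1 had a log2 difference of 0.27 ± 0.13 (95% interval 0.02 to 0.52, adjusted p = 1) for the deletion, with an unadjusted p under 0.05, and of 0.18 ± 0.13 for the heterozygotes. edgeR called 0 of 8033 genes (0%) in either comparison, with 237 and 154 at an unadjusted p under 0.05. In the lower Gfap cluster 0 of 11964 genes (0%) were called in either, with 661 and 569 at an unadjusted p under 0.05.

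Sex was compared within the 4 groups that held both. Gja1 was at 233 to 457 CPM with a median of 340 in 11 females and at 207 to 341 CPM with a median of 274 in 12 males, and the ranges overlapped. Gja1 was higher in females by 0.37 ± 0.09 on the log2 scale (adjusted p = 0.0435, edgeR), the 1 member among 251 of 12987 genes called (1.93%). DESeq2 called 497 genes, also with 1 member, and the other 8 members lay between -0.10 (Slc1a3) and 0.22 (Slc7a10). The call did not last with the software version of the count tables as a term (log2 difference 0.49, adjusted p = 0.157), a version that all females share, nor in 15 of the 23 fits that left out 1 mouse each, where the difference stayed between 0.32 and 0.41. Within libraries of version 3.1.0 the 11 females had a mean of 336 CPM and the 4 males 246 CPM, and the 8 males of version 3.0.2 had a mean of 285 CPM.

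Whether the tau contrast differed between sexes was tested as an interaction, and 1 of 12987 genes (0.0077%) was called, which was no member (DESeq2 called 11). The smallest p was that of Gjb6, at -1.14 ± 0.34 on the log2 scale (adjusted p = 0.646, edgeR), and the other 8 members lay between -0.85 (Glul) and 0.24 (Kcnj10). Gjb6 was at 132 to 157 CPM in 2 Cgas+/+ females and at 72.1 to 81 CPM in 3 P301S Cgas+/+ females, and at 86.4 to 133 CPM in 3 Cgas+/+ males and 94.3 to 148 CPM in 3 P301S Cgas+/+ males.

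Outside the astrocytes, P301S Cgas+/+ was tested against Cgas+/+ in oligodendrocyte-, OPC-, microglia-, excitatory neuron- and inhibitory neuron-like nuclei, and no member was called in these 5 classes. The other classes were not tested. In oligodendrocyte-like nuclei 7 members could be tested, and 1 of 11677 genes (0.00856%) was called. Slc1a3 had the smallest p there, at 183 ± 31.1 CPM in Cgas+/+ mice and 127 ± 26.7 CPM in P301S Cgas+/+, a log2 difference of -0.49 ± 0.22 (adjusted p = 0.684, edgeR). The 5 Cgas+/+ mice were at 226, 190, 156, 150 and 195 CPM of Slc1a3 and the 6 P301S Cgas+/+ mice at 104, 168, 102, 126, 113 and 151 CPM. Kcnj10 in oligodendrocyte-like nuclei was at 108 ± 27.4 CPM (72.7 to 140) and 125 ± 25.5 CPM (103 to 166), a log2 difference of 0.20 ± 0.12. Glul was at 217 ± 61.6 and 236 ± 30.7 CPM there, and the other 4 members tested lay between -0.34 (Slc1a2) and 0.39 (Slc6a11) on the log2 scale. In OPC-like nuclei 1 of 8723 genes (0.0115%) and 0 of 7 members were called, in excitatory neuron-like nuclei 4 of 16526 (0.0242%) and 0 of 9 members, and in inhibitory neuron-like nuclei 1 of 12657 (0.0079%) and 0 of 5 members. The members' log2 differences ran from -0.30 (Slc6a11) to 0.16 (Glul) in OPC-like, from -0.32 (Slc1a2) to 0.47 (Kcnj10) in excitatory neuron-like and from -0.29 (Slc4a4) to 0.31 (Slc1a3) in inhibitory neuron-like nuclei.

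Kcnj10 in microglia-like nuclei was low, and its means were higher in the P301S groups. It was at 5.96 ± 2.64 CPM (2.44 to 9.37, n = 5) in Cgas+/+ and at 13.2 CPM (11.4 to 16.9, median 12.6, n = 6) in P301S Cgas+/+, with no overlap. The share of all genes without overlap is not given here. The log2 difference of Kcnj10 was 1.10 ± 0.33 (adjusted p = 0.126, edgeR), and it did not pass the threshold. No gene of the 9098 tested in this class was called by edgeR (0%), 1416 had an unadjusted p under 0.05 and DESeq2 called 239. The Cgas+/- mice were at 3.71 and 6.34 CPM and the Cgas-/- mice at 3.68 and 9.95 CPM, while P301S Cgas+/- mice were at 9.75 to 23.2 CPM and P301S Cgas-/- mice at 11.4 to 19.2 CPM, so that tau-free and P301S ranges overlapped between 9.75 and 9.95 CPM. The other 4 members tested in this class lay between -0.47 (Slc1a2) and 0.29 (Slc1a3) on the log2 scale. Kcnj10 in microglia-like nuclei was at 8.37% of its astrocyte-like level on average, against 2.48% for the astrocyte marker sum. That sum does not gauge free RNA from oligodendrocyte-like and OPC-like nuclei, which held Kcnj10 at 119 and 68 CPM. The part of free RNA in the difference was not tested.

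Other genes of the same pathways, from lists written with earlier results of these data known, were read beside the members in astrocyte-like nuclei. In the tau contrast 0 genes of each list were called. Of the 16 genes of glutamate and GABA handling, 15 were tested with a median log2 difference of -0.20, against -0.01 over all genes, and the smallest p-values were those of Got2 (-0.39, adjusted p = 0.244), Glud1 (-0.40, adjusted p = 0.278) and Slc1a5 (1.54). The 14 potassium and water genes had a median of -0.04, with Aqp4 (0.71, adjusted p = 0.306) and Kcnj16 (-0.68) among those of smallest p. The 7 tested of 12 gap junction genes had a median of 0.16, led by Cav1 (1.77), Gjc3 (0.77) and Tjp1 (0.16), and 14 of 15 genes of acid-base, lactate, glucose and amino acid transport had a median of -0.02, led by Slc3a2 (-0.39), Slc7a8 (1.06) and Slc16a1 (0.65).

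In the pooled comparison, which called 2.75% of all genes, a few of these genes were called. These calls rest on the 4 mice of the Cgas+/- and Cgas-/- groups: without any 1 of them the pooled comparison called 1 to 7 genes in all (7 without Cgas+/- replicate 1, 1 without Cgas+/- replicate 2, 2 without Cgas-/- replicate 1 and 1 without Cgas-/- replicate 2), and with software version as a term 99. Slc1a5, a neutral amino acid exchanger, rose by 2.34 ± 0.48 on the log2 scale (adjusted p = 0.0232), and Glud1, glutamate dehydrogenase, fell by 0.43 ± 0.10 (adjusted p = 0.0275). Slc1a5 was low throughout, at 0.885 to 10.5 CPM in Cgas+/+ mice and 4.73 to 20.4 CPM in P301S Cgas+/+, and Glud1 was at 614 ± 57.4 and 483 ± 72.6 CPM. Of the potassium and water genes, Dmd, which encodes dystrophin, fell by 0.35 ± 0.08 (adjusted p = 0.0283). Kcnk2, a two-pore potassium channel gene, fell by 0.38 ± 0.10 (adjusted p = 0.0369) over the pooled groups, but not with intact Cgas. There its mean rose with tau from 125 ± 14.1 to 145 ± 20.7 CPM, with overlapping ranges. The Kcnk2 mean dropped with tau from 157 to 117 CPM among heterozygotes and from 188 to 107 CPM without Cgas, each from 2 tau-free mice. DESeq2, but not edgeR, called Kcnk2 in the interaction of P301S with Cgas deletion. Tjp1, a scaffold protein of junctions, rose by 0.24 ± 0.06 (adjusted p = 0.0449), the 1 call of 7 gap junction genes tested. Of the 14 tested acid-base and transport genes 0 were called.

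The reactive astrocyte list had larger differences than these 4 lists. Its fitted values were above 0 for 20 of 20 genes tested in the tau contrast (median 2.91) with 0 called by edgeR, where DESeq2 called Serpina3n, Gbp2 and Stat3 and edgeR called Stat3 without P301S Cgas+/+ replicate 2 (log2 difference 1.18). Further, 15 of 21 tested genes rose in the pooled comparison (median 2.19), against 2.75% called of all genes, and at most 7 of these calls can remain when any 1 of the same 4 mice is left out. Serpina3n rose by 3.98 and Gbp2 by 3.79 on the log2 scale, Vim by 2.83, Gfap by 1.87 (adjusted p = 0.0352) and Stat3 by 0.85 (adjusted p = 0.0232). The largest value was that of the complement gene C3, at 5.34, and it rests on counts near 0. C3 was at 0 to 1.02 CPM in Cgas+/+ mice and at 0.225 to 13 CPM in P301S Cgas+/+. It ranged from 0 to 21.3 CPM in P301S Cgas+/- and from 0 to 15 CPM in P301S Cgas-/-. Gbp2 was also low, at 0.266 to 1.87 CPM in Cgas+/+ and 0.901 to 15.5 CPM in P301S Cgas+/+. In no list was a gene called in the deletion, heterozygous or sex comparison.

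The members were also compared with each other from mouse to mouse, as deviations of log2(CPM + 1) from the mean of the mouse's genotype group in astrocyte-like nuclei. All values of a mouse share its library and its class total. Of the 36 pairs of members, 11 were correlated by both Pearson's r and Spearman's rho at an adjusted p under 0.05 over 45 relations (permutation test, 100000 resamples), each of them positive, and 10 of the 11 had an r over 0.4 when the 2 mice farthest from the median were left out. Deviations from 6 group means are not 27 independent values, and the 2 mice of Cgas+/- and of Cgas-/- mirror each other. The p-values of these relations may therefore be too small. Close to the threshold were Slc1a2 with Slc6a11 (permutation test, adjusted p of r 0.0487) and Kcnj10 with Slc7a10 (0.0307 for r, 0.0469 for rho). The share of pairs called among other genes was not counted, so the 11 calls are no trait particular to the members. Of 3573 other genes, 6 (for Glul and Slc7a10) to 1507 (for Slc1a3) had a higher r with a member than its closest fellow member. Glul and Slc7a10 had r = 0.84 and rho = 0.75 over 27 mice (permutation test, adjusted p of r 0.00015, r = 0.78 without 2 mice), with 0.79 in the 12 libraries of software version 3.0.2 and 0.84 in the 15 of version 3.1.0. Glul and Gjb6 had r = 0.80 and rho = 0.79 (0.75 without 2 mice, 0.63 and 0.84 by version), and Slc1a2 and Glul r = 0.73 and rho = 0.68 (0.61 without 2 mice, 0.68 and 0.81 by version). Over both astrocyte-like clusters together, mice with more glutamine synthetase RNA than their group thus tended to have more of these 3 transport and coupling genes. Glul and these 3 genes were all lower in the higher Gfap cluster, whose share of the nuclei differed between mice. Within the lower Gfap cluster alone 1 of the 45 relations was called. The part of the cluster shares in these correlations was not tested.

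Of the 9 members, 4 moved against Gfap by both measures and 1 moved with it. Slc6a11 had r = -0.83 and rho = -0.89 with Gfap (-0.82 without 2 mice, -0.83 and -0.84 by software version). Slc1a2 had r = -0.71 and rho = -0.68, Glul r = -0.70 and rho = -0.63, and Slc7a10 r = -0.60 and rho = -0.51 with Gfap. For Slc1a2 and Glul the relation rested on the libraries of version 3.1.0 (-0.86 and -0.88), with -0.12 and -0.35 in those of version 3.0.2. Slc1a3 had the opposite sign, r = 0.55 and rho = 0.54, with 0.34 without 2 mice and 0.09 within version 3.0.2. Within the lower Gfap cluster alone, 1 of the 45 relations was called, against 16 over both clusters. The signs of Slc1a2 and of Slc7a10 with Gfap were reversed there.

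**Figure D5:**
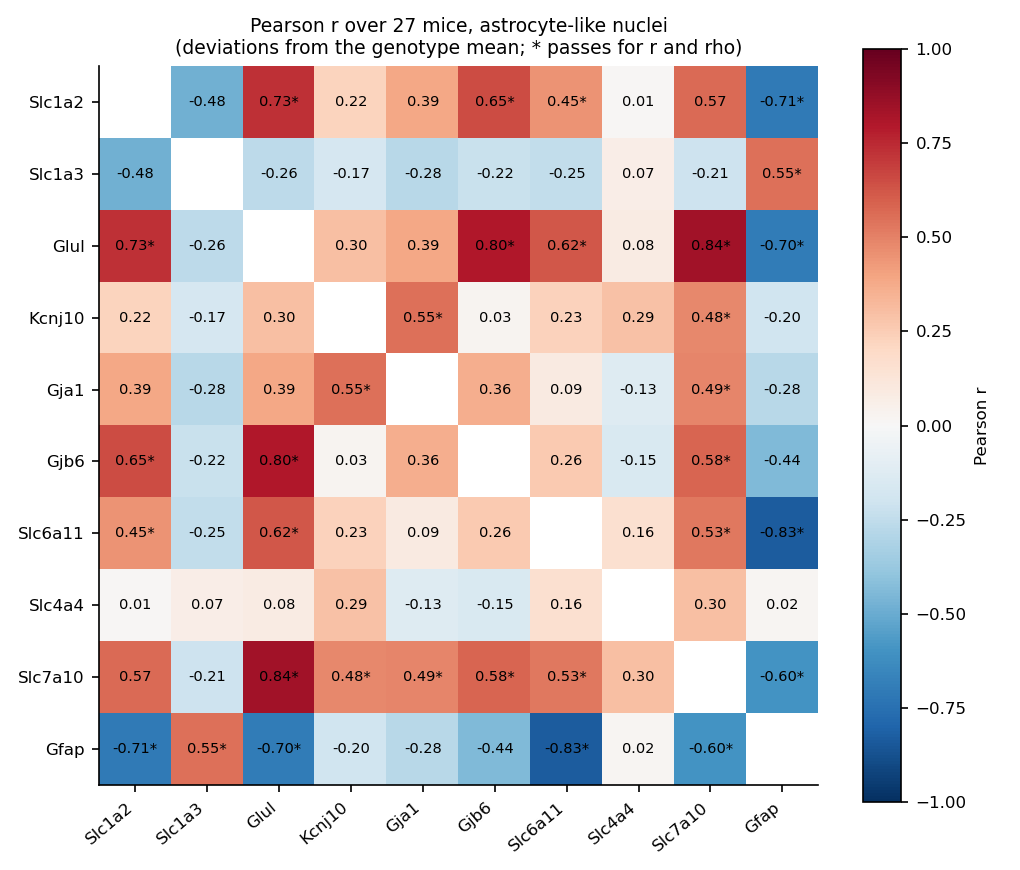
Pearson's r between each pair of the 9 genes and between each gene and Gfap, over 27 mice, of deviations of log2(CPM + 1) in astrocyte-like nuclei from the genotype group mean, on a colour scale from -1 to 1, with an asterisk where r and rho both have an adjusted p under 0.05. Glul is positive with Slc7a10, Gjb6 and Slc1a2, Slc6a11 and Gfap have the most negative value at -0.83, and Slc1a3 has no pair with an asterisk other than that with Gfap.

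By the same measure, the non-member genes closest to each member were taken from 3573 genes of at least 50 CPM, 3 per member, as a description. Glul was followed by Fam171b (r = 0.93), Ahcyl1 (0.92) and St3gal4 (0.88), and Gjb6 by Fam171b (0.88), Tsc22d3 (0.87) and Fam107a (0.87). Slc7a10 was followed by S1pr1 (0.89), Mfge8 (0.89) and Hapln1 (0.88), and Slc1a2 by Htra1 (0.87), Acsl3 (0.86) and Lsamp (0.85). Slc6a11 was followed by 6430573F11Rik (0.87), Fat3 (0.84) and Grid1 (0.83), and Gja1 by Itm2b (0.85), Gpr37l1 (0.83) and Cst3 (0.79). Kcnj10 had Eno1 (0.70) and Amer2 (0.69) among its 3. Slc4a4 had Zfpm2 (0.70) and Acyp2 (0.65) among its 3, and Slc1a3 was closest to Vcp (0.68), Gsap (0.67) and Eml4 (0.67), while the member closest to Slc1a3 was Slc4a4 at 0.07.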

How the data were processed

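Nuclei of 27 mouse hippocampi were profiled on the 10x Chromium 3' v3 platform. The authors deposited whole-number UMI counts for each gene in each called barcode. Cell Ranger had aligned the reads to mm10 with introns counted, and nothing was filtered or normalized after that. Version 3.1.0 is stated, but the file headers name 3.0.2 in 12 libraries, all from males, and 3.1.0 in 15; the annotation release is not given in the sources used here. Gene positions came from GENCODE M21 by gene ID and promoters from RefSeq (GRCm38.p6).

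Nuclei with 200 to 4000 genes and no more than 5% of UMIs from mitochondrial genes were retained (221281 of 241938 barcodes), and the 16429 with the highest Scrublet scores were removed, at 0.8% per 1000 barcodes of a library. Counts were scaled, log-transformed and clustered (scanpy 1.11.5, 2000 variable genes without the 9 members, 30 principal components, 15 neighbours, Leiden resolution 1). Clusters were named from marker lists with at least 3 markers detected in at least 10% of nuclei; the thresholds of the naming rule were set with the data in view. The members and lists were chosen with earlier results of these data known.

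For every mouse, the counts of a class were added up and given as CPM of that sum, in mice with at least 20 nuclei of the class (in the 2 astrocyte-like clusters, in all mice). Sums were tested in edgeR 4.0.16 under R 4.3.3 by quasi-likelihood (robust fit, TMM, filterByExpr) with sex as a covariate, over 23 mice of 4 groups, since the study left the 2 tau-free groups of 2 mice out of its comparisons, or over all 27 mice for the pooled, tau-free deletion and interaction comparisons. The pooled comparison gave each genotype group the same weight, whatever its number of mice. P-values were adjusted by Benjamini-Hochberg over all genes tested, with a threshold of 0.05. Intervals of 95% are from the SE and the normal distribution. Shares were compared with exact permutation tests and correlations with 100000 permutations. Simulated counts with known changes were used to test 2 of the edgeR fits. These were the tau contrast in astrocyte-like nuclei and the difference between clusters in the pooled comparison.

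The 9 members are given in each comparison by value or by their range; of each other list, genes past the threshold or else the 3 of smallest p in the tau contrast are named, apart from a few genes that are not reported here. Alternatives were DESeq2 1.42.0, RLE normalization, no filter on low counts, no sex covariate, software version as a term, only the groups of a contrast, all 27 mice, the double doublet rate, a pseudocount of 5 in place of 1, each mouse left out in turn and, added after the data were seen, single astrocyte-like clusters and the series without the 3 libraries that stood apart. Protein sequences were not used here.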

Additional observations from a re-analysis of the deposited data

Results flagged for a closer look

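In groups of 4 to 10 mice, a level far from the rest of its group was looked for in 40 sets of values, and 2 were found, where chance alone marks about 1 set in 20. Both concern Kcnj10 in astrocyte-like nuclei and both are females: P301S Cgas+/+ replicate 4 was at 180 CPM, with the other 5 mice at 96 to 125 CPM (a gap of 0.659 of the range), and P301S Cgas+/- replicate 5 was at 173 CPM, with the other 5 at 120 to 136 CPM (0.687 of the range).

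The log2 difference between P301S and tau-free mice was not the same in the 2 astrocyte-like clusters, in a fit with each mouse as a block (edgeR). In the pooled comparison the difference, higher minus lower Gfap cluster on the log2 scale, was 1.23 for Slc1a3, 1.46 for Slc7a10 and -0.43 for Gja1. In P301S Cgas+/+ against Cgas+/+ it was 1.23 for Slc1a3 and 1.45 for Slc7a10. The clusters were separated after the data had been seen, are made from the same nuclei and were filled unequally by the groups. Whether RNA changed within nuclei of the same kind or other nuclei fell into a cluster cannot be told apart.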

How the results depend on the processing

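The rise of Slc1a3 and of Slc7a10 in the higher Gfap cluster of P301S mice kept its direction in every alternative run. Pooled, Slc1a3 stayed between 1.07 and 1.27 (log2), Slc7a10 between 1.31 and 1.53 and Gja1 between -0.55 and -0.36, each called in all 33 alternatives; in P301S Cgas+/+ against Cgas+/+ the adjusted p reached 0.00243 for Slc1a3 and 0.188 for Slc7a10, called in 6 of 17 alternatives, and the Gja1 sex difference passed it in some settings only. Of 406 alternative values for counts and shares, 327 stayed within 1.5 times the main value or the spread, 77 moved and 2 reversed, and of 2436 values for single genes 97 reversed, 31 lost and 22 gained a call. No paired analysis was possible because the replicate numbers follow the order of the samples and pair no mice. The libraries with few higher Gfap nuclei limit the depth, at 2 to 12 Slc7a10 UMIs per tau-free mouse.

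Counts of called genes moved with the test: DESeq2 called 172 in the tau contrast, 1 in the deletion contrast, 710 in the pooled comparison, 497 by sex, 6 in the interaction with deletion, 11 in that with sex, and for tau 17 in OPC-like, 11 in excitatory neuron-like, 239 in microglia-like and 9 in oligodendrocyte-like nuclei. Without a filter on low counts the numbers were 132 (pooled), 157 (sex), 2 (sex by tau), 73 (OPC-like), 810 (microglia-like) and 757 (tau, higher Gfap cluster). With software version as a term they were 99 (pooled) and 12 (sex), and 9 by sex in version 3.1.0 alone. The tau contrast called 298 genes in the higher Gfap cluster and 0 in the lower Gfap cluster, without the sex covariate, with its 2 groups only, in the purest nuclei and without the 3 libraries that stood apart; the pooled comparison called 925, 23 and, without those libraries, 885. With the double doublet rate Gjb6 was at 0 CPM in Cajal-Retzius-like and 176 CPM in fibroblast-like nuclei. In the lower Gfap cluster 1 correlation was called.

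Leaving out each mouse in turn gave 0 to 16 called genes in the tau contrast (16 without P301S Cgas+/+ replicate 2), 0 to 2 in the deletion and 0 to 0 in the heterozygous contrast, 1 (without Cgas+/- replicate 2 or Cgas-/- replicate 2) to 781 (without P301S Cgas+/+ replicate 2) in the pooled comparison, 83 to 445 by sex, 71 (without Cgas+/+ replicate 5) to 423 for tau and 508 to 997 pooled in the higher Gfap cluster, and 102 to 310 for tau and 857 to 986 pooled for the difference between clusters. The share of astrocyte-like nuclei differed by -4.54 to -1.99 points for tau, -0.0942 to 2.45 for the deletion and -0.0715 to 2.47 for the heterozygotes.

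Signs that reversed are given here in log2 units. In the higher Gfap cluster alone the tau difference was 0.31 for Gjb6, 0.01 for Glul, 0.10 for Kcnj10, 0.01 for Slc1a2, 1.26 for Slc7a10, -0.28 for Aqp4, 0.16 for Got2 and 0.43 for Slc3a2, the pooled one 0.04 for Slc1a2, 0.02 for Slc4a4 and 1.39 for Slc7a10, the deletion difference 0.03 for Slc1a3 and -0.06 for Slc6a11, and the heterozygous one -0.09 for Slc1a3 and -0.13 for Slc6a11. In the lower Gfap cluster alone it was 0.04 for Glul, -0.09 for Slc16a1, -0.06 for Slc7a8 and -0.02 for Tjp1 (tau), 0.01 for Glul, 0.02 for Slc1a2, -0.08 for Slc1a3, 0.06 for Slc6a11 and 0.02 for Slc7a10 (pooled), 0.01 for Slc1a3 (deletion), -0.08 for Slc7a10 (heterozygous) and -0.03 for Slc6a11 (sex), and r was -0.33 for Glul with Slc6a11, 0.12 for Slc1a2 with Gfap, -0.30 for Slc1a2 with Slc6a11, -0.16 for Slc6a11 with Slc7a10 and 0.17 for Slc7a10 with Gfap. Without the 3 libraries that stood apart it was -0.03 for Gjb6 (pooled), 0.02 for Slc1a3 (deletion), -0.10 for Slc6a11 and -0.03 for Slc7a10 (heterozygous), and within the higher Gfap cluster -0.14 for Glul and -0.03 for Slc1a2 (tau). Without mice of under 20 nuclei there it was -0.05 for Glul and -0.05 for Slc1a2 (tau) and -0.03 for Slc4a4 (pooled), which was -0.02 without the sex covariate. Leaving out 1 mouse gave ranges across 0: -0.1 to 0.14 for Gjb6 (pooled), -0.03 to 0.08 for Slc4a4 (tau), -0.08 to 0.25 for Glul and -0.06 to 0.03 for Slc1a3 (deletion), -0.09 to 0.25 for Glul, -0.01 to 0.18 for Kcnj10, -0.04 to 0.14 for Slc1a2, -0.05 to 0.06 for Slc1a3, -0.05 to 0.2 for Slc6a11 and -0.13 to 0.14 for Slc7a10 (heterozygous), and, in the higher Gfap cluster, -0.24 to 0.12 for Glul, -0.04 to 0.21 for Kcnj10 and -0.1 to 0.1 for Slc1a2 (tau), and -0.02 to 0.12 for Slc1a2, -0.03 to 0.08 for Slc4a4 and -0.28 to 0.04 for Slc6a11 (pooled); the difference between clusters for Slc6a11 was -0.1 to 0.06 (tau). The cause of these changes was not tested.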

Other observations

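Among the classes not compared between genotypes were fibroblast-like, choroid plexus-like and endothelial-like nuclei. Fibroblast-like nuclei held Glul at 241 ± 119 CPM (SD, n = 14 mice) and Slc4a4 at 513 ± 173 CPM, and endothelial-like nuclei held Glul at 124 ± 48.9 CPM (n = 21), 24.9% of its astrocyte-like level.

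In the higher Gfap cluster, P301S Cgas+/- replicate 6 was the P301S mouse at the tau-free level of both Slc1a3 (1599 CPM) and Slc7a10 (27 CPM), with 52 nuclei. Agt there was at 63.5 ± 32.5 CPM in the 9 tau-free and 12.6 ± 5.08 CPM in the 18 P301S mice, and Aqp4 at 948 ± 222 and 606 ± 120 CPM.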
